A study of Mus musculus with 6 samples.

Results

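The genes described here are 41 genes of antioxidant defence and glutathione metabolism in mouse alveolar type 2 cells (AT2s), the surfactant-producing cells of the lung that renew themselves and give rise to the flat AT1 cells. Members were the rows of the count table that carry the symbol of a listed gene, and all 41 symbols were found among 24421 genes. RNA was sequenced from sorted, lineage-labeled AT2s, with 3 control and 3 caBmpr1a libraries. The sources do not say whether a library came from 1 mouse or from several, so the p-values measure the spread between these libraries. Control mice carried *Sftpc-CreERT2* and 1 copy of *R26-tdTomato*. In caBmpr1a mice the other *Rosa26* locus held *R26-caBmpr1a*. AT2s that recombined this allele after tamoxifen also made BMPR1a, a type I receptor for BMP ligands, in a version that signals without ligand. All mice thus share the Cre driver, which acts in cells that use the *Sftpc* promoter, and the red reporter. Control replicate 2 and caBmpr1a replicate 1 came from mice 16 weeks old, and the other 4 libraries from mice 12 weeks old. The comparison asks how the members' RNA levels differ in labeled AT2s of mice with the active receptor allele. From its organoid cultures the paper proposes that some labeled AT2s recombined the reporter without the receptor allele. The share of such cells in the caBmpr1a libraries was not tested.

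Cells remove superoxide with superoxide dismutases, which turn it into hydrogen peroxide, and remove the peroxide with catalase, glutathione peroxidases and peroxiredoxins. The peroxidases draw on glutathione, made from cysteine, glutamate and glycine, and on thioredoxin, and both are returned to the reduced form with NADPH. Many of these genes are targets of the transcription factor NRF2, which the adaptor KEAP1 keeps low until oxidants or electrophiles modify KEAP1. Cells of the lung surface meet more oxygen than most cells of the body. In bulk RNA a lower value can mean fewer cells of a type or less RNA per cell, and these cannot be told apart.

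Only *Gss*, which encodes the enzyme of the last step of glutathione synthesis, rose in caBmpr1a cells past an adjusted p of 0.05. It was 2.93-fold higher, while no member passed as lower. The p-values are from edgeR's quasi-likelihood model, adjusted by Benjamini-Hochberg over the 16723 genes kept by its expression filter, and SE is the standard error of each log2 value. All 41 members passed that filter, and over all genes tested 0.239% were called higher and 0.012% lower. With p taken unadjusted, 3 members were higher at under 0.05 (*Gss*, *Sod3* and *Nqo1*; 7.32% of members, against 4.62% of all genes) and 6 were lower (*Cat*, *Mt1*, *Gpx8*, *Mgst1*, *Gpx7* and *Txn1*; 14.6%, against 5.05%). The 3 caBmpr1a values lay above all 3 control values for 4 members (9.76%, against 7% of all genes) and below them for 12 members (29.3%, against 10.1%). For 1 gene, an exact permutation of 3 libraries against 3 could not reach a two-sided p below 0.1. Besides *Gss*, no member was called by DESeq2 either, where *Cat* came nearest (adjusted p = 0.0540 from DESeq2).

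**Figure D1:**
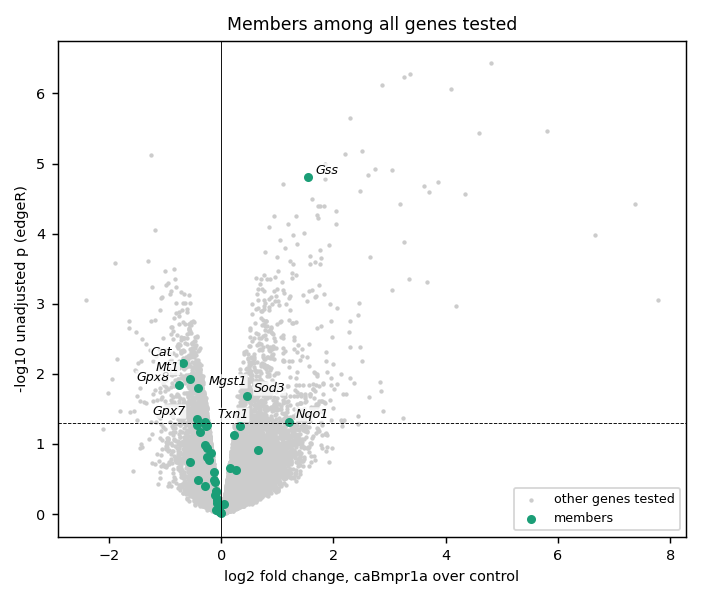
Each gene tested is a point, with its log2 fold change (caBmpr1a over control) on the x axis and -log10 of its unadjusted edgeR p on the y axis. Members are the larger green points, the dashed line marks an edgeR p of 0.05, and the members above it are named; *Gss* stands at a log2 fold change of 1.55 and the other members lie within the cloud of all genes.

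The libraries held between 21554249 and 28440227 counts, so that 3 counts correspond to between 0.105 and 0.139 CPM (the usual unit of counts relative to the library total) before scaling, which covers counting error only. Levels below are CPM after TMM scaling of the libraries. The BMP target *Id1* had 18.5, 20.8 and 19.2 CPM in the control libraries and 124, 177 and 411 CPM in the caBmpr1a libraries, in the direction the labels give. *Bmpr1a* itself was flat, between 105 and 130 CPM in control and between 96.8 and 131 CPM in caBmpr1a libraries (log2 fold change -0.015), and whether reads of the transgene count there was not tested. Control replicate 1 and caBmpr1a replicate 3 had reads on the Y-linked genes *Eif2s3y*, *Ddx3y*, *Kdm5d* and *Uty* (176 and 146 CPM in sum), where the other 4 libraries had 0. This pair also lay apart on the first principal component, which held 49.3% of the variance. The plot of fold changes in 6 and in 4 libraries shows all members with and without this pair, and the larger shifts are also given in the text. AT2 markers were high in all libraries (summed over 10 genes, from 116700 to 132500 CPM in control and from 100700 to 111700 CPM in caBmpr1a). Summed over 10 genes each, endothelial markers ranged from 274 to 572 CPM in control and from 495 to 814 CPM in caBmpr1a, with 10 of 10 genes above 0 in log2 fold change, and mesenchymal markers ranged from 159 to 210.1 CPM and from 250.1 to 312 CPM, with 10 of 10 above 0. Summed over 12 genes, leukocyte markers ranged from 2069 to 2760 CPM and from 341 to 1437 CPM, a sum made mostly of *Lyz1*, which AT2s also express, and 9 of the 12 genes were above 0. *Krt5* of basal cells and the haemoglobin genes *Hba-a1*, *Hba-a2*, *Hbb-bs* and *Hbb-bt* had 0 counts in every library. The part of these other cells in the members' values was not tested.

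The members' log2 fold changes lay between -0.74 and 1.55, with a median of -0.12 against -0.0096 over all genes tested. Of the 41 members, 32 were below 0, as were 51.2% of all genes. Scaling by library size only moved the median of all genes to 0.12 and that of the members to 0.016, and 20 members were then below 0. The gap between both medians was -0.107 with TMM and -0.105 with library size only, and 31 members lay below the median of all genes under either scaling. Single libraries weigh on this shift. Control replicate 1 held the highest value of 21 of the 41 members (51.2%), where it held the highest value of 23% of all genes, and caBmpr1a replicate 3 held the lowest value of 13 members (31.7%, against 26.8% of all genes). Without control replicate 1 the median of the members was -0.061, with 23 members below 0. Without caBmpr1a replicate 3 it was -0.081, with 26 members below 0. The gap to the median of all genes was -0.075 and -0.077 in these fits, in that order. It lay between -0.171 and -0.132 with any other library left out. With only the 4 libraries that lack Y-linked reads the median of the members was -0.024, with 24 members below 0. The gap to the median of all genes was then -0.041, and 24 members lay below that median. In all 6 libraries the gap was -0.163 with no filter on low counts and -0.164 with DESeq2.

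**Figure D2:**
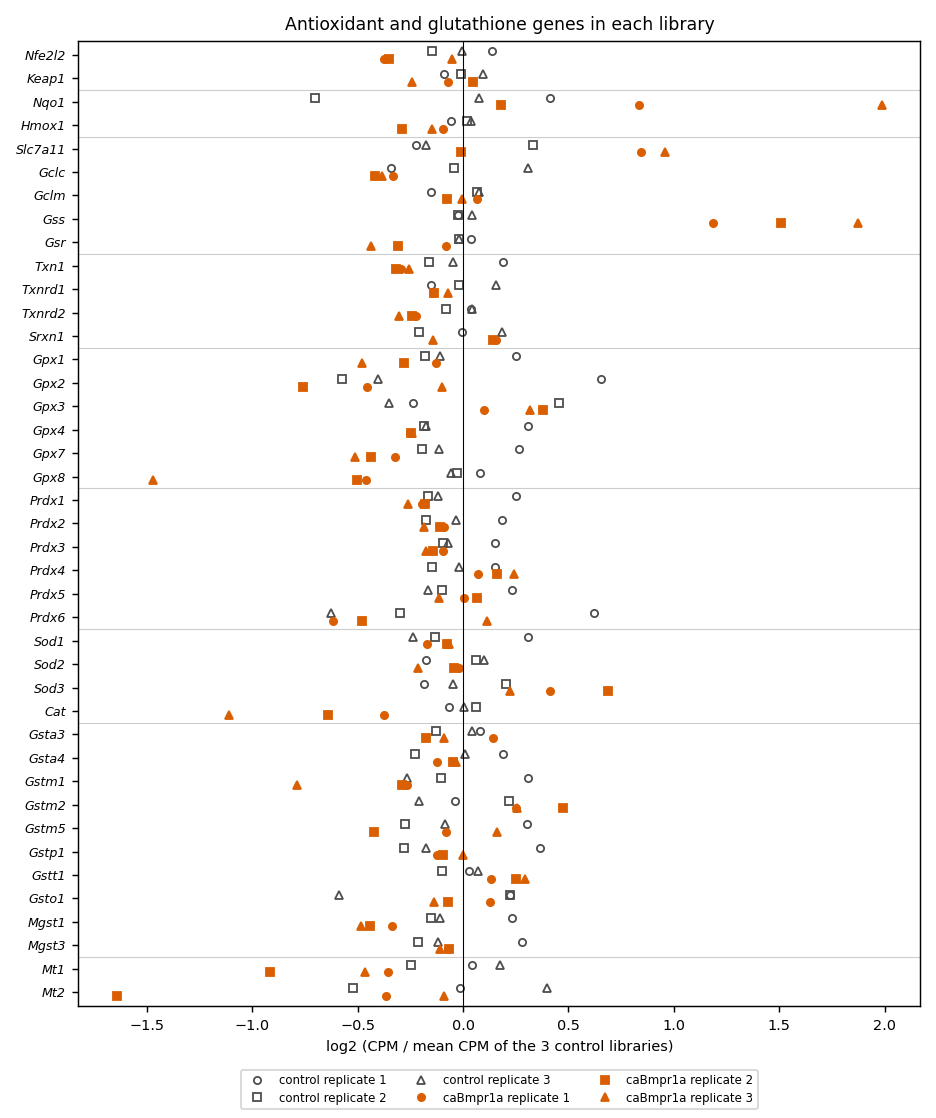
For each of the 41 members (rows, in groups of one role), points give log2 of the CPM in each library over the mean CPM of the 3 control libraries. Open grey symbols are control and filled orange symbols caBmpr1a libraries, with 1 symbol shape per replicate number; the 3 orange points of *Gss* lie far right of its control points, and those of *Cat* and *Gpx8* lie left of theirs.

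*Nfe2l2*, which encodes NRF2, had 455, 372 and 412 CPM in control and 318, 324 and 397 CPM in caBmpr1a libraries. The groups overlap only through caBmpr1a replicate 3, and the log2 fold change was -0.25 (SE 0.14, edgeR adjusted p = 0.617). *Keap1*, the adaptor that marks NRF2 for degradation, lay between 82.2 and 93.4 CPM in control and between 73.9 and 90.3 CPM in caBmpr1a libraries, a log2 fold change of -0.09.

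The classical NRF2 target enzymes did not move together. *Hmox1*, the inducible heme oxygenase, had 86.7, 91.5 and 92.6 CPM in control and 84.5, 73.8 and 81.6 CPM in caBmpr1a libraries. Its caBmpr1a values were all lower, but by a log2 fold change of only -0.18 (edgeR adjusted p = 0.633). *Nqo1*, a quinone reductase often used as a readout of NRF2, was near the bottom of the list in level. It had 2.60, 1.20 and 2.06 CPM in control and 3.48, 2.21 and 7.75 CPM in caBmpr1a libraries, from 28 to 58 and from 57 to 238 counts. Its log2 fold change of 1.20 (SE 0.52, edgeR adjusted p = 0.509) rests in large part on caBmpr1a replicate 3 and was 0.58 without that library. *Srxn1*, which encodes sulfiredoxin and restores overoxidized peroxiredoxins, overlapped between groups at 16.8 to 22.1 and 17.6 to 21.6 CPM. *Slc7a11*, the cystine transporter subunit that feeds glutathione synthesis, had 1.84, 2.70 and 1.90 CPM in control and 3.85, 2.13 and 4.17 CPM in caBmpr1a libraries. Only caBmpr1a replicate 2 lay within the control range, and the log2 fold change was 0.66 (SE 0.38, edgeR adjusted p = 0.621), or 0.41 in the 4 libraries.

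Among the enzymes that make and recycle glutathione, only *Gss* passed the test. *Gss* lies on the reverse strand of mm10 at chr2:155563181-155592810. It had 22.5, 22.5 and 23.5 CPM in the control libraries and 51.9, 65.0 and 83.6 CPM in the caBmpr1a libraries. The control libraries lay close together, and every caBmpr1a library was more than 2-fold above them. Control averaged 22.8 ± 0.617 and caBmpr1a 66.8 ± 16.0 CPM (SD, n = 3), a log2 fold change of 1.55 (SE 0.17, edgeR adjusted p = 0.0165), which placed *Gss* at rank 16 of all genes by p. With only the 4 libraries that lack Y-linked reads it was 1.38 (edgeR adjusted p = 0.0120). With 1 library left out at a time the log2 fold change stayed between 1.40 and 1.73, while the adjusted p was above 0.05 without control replicate 1 (0.0831), control replicate 2 (0.119), control replicate 3 (0.0932) or caBmpr1a replicate 2 (0.0778, all from edgeR's test), fits in which 13, 6, 7 and 8 genes were called in all.

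The other enzymes of the pathway gave no such rise. *Gclc*, the catalytic subunit of glutamate-cysteine ligase, whose reaction limits the rate of glutathione synthesis, had 912, 1122 and 1432 CPM in control and 917, 865 and 885 CPM in caBmpr1a libraries. Control values spread widely, caBmpr1a values did not, and the groups met at the lowest control library (log2 fold change -0.38, SE 0.18, edgeR adjusted p = 0.551). Its log2 fold change was -0.49 in the 4 libraries (edgeR adjusted p = 0.151), where the groups did not overlap. Without control replicate 1 this value was -0.53, and without control replicate 3 it was -0.20. *Gclm*, the regulatory subunit of the same enzyme, had 17.2, 20.02 and 20.1 CPM in control and 20.03, 18.2 and 19.0 CPM in caBmpr1a libraries, with group means of 19.1 CPM in both. *Gsr*, glutathione reductase, had 52.9, 50.8 and 50.8 CPM in control and 48.6, 41.5 and 38.0 CPM in caBmpr1a libraries (log2 fold change -0.27, edgeR adjusted p = 0.528), and its log2 fold change was -0.14 in the 4 libraries. Per exon length, *Gclc* stood 23.3-, 28.6- and 34.9-fold above *Gss* in the control libraries and 10.1-, 7.63- and 6.06-fold above it in the caBmpr1a libraries.

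*Gss* sits in a stretch of the chromosome where the nearest tested gene on either side was also called higher. These neighbours were chosen after the value of *Gss* was seen. *Acss2*, which makes acetyl-CoA from acetate, ends 438 bases from *Gss*, on the other strand. It had 23.7, 28.9 and 27.3 CPM in control and 50.7, 45.7 and 48.1 CPM in caBmpr1a libraries, a log2 fold change of 0.85 (SE 0.12, edgeR adjusted p = 0.0367). *Myh7b*, a myosin heavy chain gene on the other strand, starts 18433 bases from *Gss*. It had 4.84, 2.66 and 1.64 CPM in control and 17.8, 29.2 and 35.6 CPM in caBmpr1a libraries, a log2 fold change of 3.19 (SE 0.40, edgeR adjusted p = 0.0234). For these 3 genes no caBmpr1a value reached down to a control value. In the 4 libraries *Acss2* and *Myh7b* were again called (edgeR adjusted p = 0.0225 and 0.0110). Other settings ended a call, with an edgeR adjusted p of 0.151 and 0.0770 when replicate numbers formed a block, of 0.0622 for *Acss2* with age as a covariate in edgeR, and of 0.0713 for *Myh7b* in limma-voom. With 1 library left out at a time the log2 fold change stayed between 0.77 and 0.91 for *Acss2* and between 2.88 and 3.68 for *Myh7b*, with adjusted p-values from 0.0858 to 0.226 and from 0.0153 to 0.157 in edgeR's test.

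Further out the genes were not called. *Trpc4ap*, 41467 bases away, had a log2 fold change of -0.12, *Edem2* of 0.41 and *Ncoa6* of 0.05, and *Ggt7*, with at most 1.53 CPM, of 1.01 (edgeR adjusted p = 0.728, 0.485, 0.951 and 0.727). The counting used no strand, so reads from either strand within *Gss* exons count for *Gss*. Whether the 3 rises have a shared source was not tested.

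**Figure D3:**
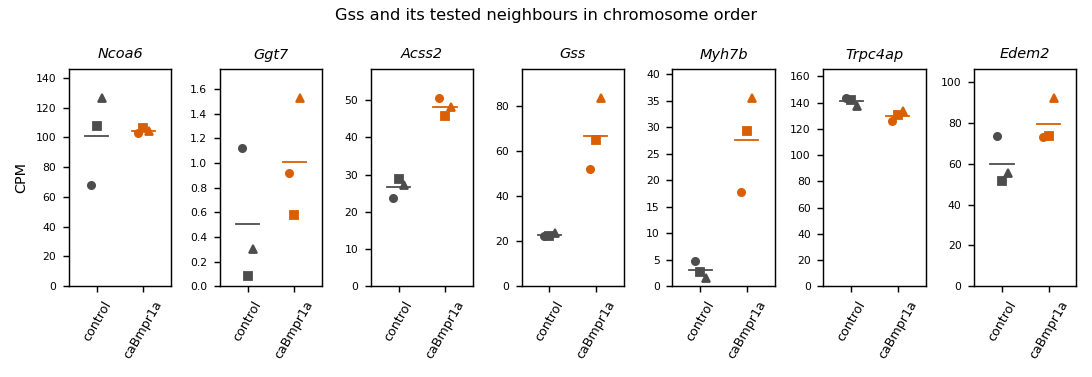
CPM of *Gss* and 6 tested neighbours, in their order along chromosome 2, each with a y axis of its own that starts at 0. Points are libraries (circle, square and triangle for replicates 1, 2 and 3) and bars are group means; *Acss2*, *Gss* and *Myh7b*, which are next to each other, have all caBmpr1a values above all control values, and the outer 4 genes do not.

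The upstream sequence of *Gss* is shown because it was the member that rose. It covers the 250 bases before the annotated start (RefSeq, GRCm38.p6, the mm10 assembly; chr2:155592811-155593060, reverse strand, 56% G or C). *Gclm* is shown beside it as the member of the same pathway that holds the core of the antioxidant response element, to which NRF2 binds (chr3:122245307-122245556, forward strand, 78.4% G or C). Capitals mark that core, TGACNNNGC on either strand, and here it reads on the opposite strand.
Gss: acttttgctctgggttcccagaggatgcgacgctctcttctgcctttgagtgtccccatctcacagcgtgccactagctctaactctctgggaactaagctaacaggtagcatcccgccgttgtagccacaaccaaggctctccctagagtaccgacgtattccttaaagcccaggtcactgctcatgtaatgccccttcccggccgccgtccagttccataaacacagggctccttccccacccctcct
Gclm: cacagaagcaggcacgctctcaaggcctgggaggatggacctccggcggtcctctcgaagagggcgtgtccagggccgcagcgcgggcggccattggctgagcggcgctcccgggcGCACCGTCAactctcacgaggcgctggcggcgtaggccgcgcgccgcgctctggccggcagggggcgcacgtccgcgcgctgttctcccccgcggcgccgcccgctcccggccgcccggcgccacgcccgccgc
No capitals appear in the *Gss* sequence, since this core was not found in the 300 bases from 250 before to 50 after its start. Capitals do not mark the GC-rich SMAD motif GGCGCC, which was also searched on both strands. That motif was absent from the same 300 bases of *Gss*, while in *Gclm* it begins at -41 and -17 from the start. The SMAD motif was in 11.9% of all windows of this length and in windows of 13.4% of all genes. It was found for 5 of the 35 members with a window (14.3%). These are descriptions of the letters in a short window.

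The antioxidant core was in 12.4% of all 32851 windows and in windows of 14% of all genes. It was found for 10 of the 35 members (28.6%), while *Hmox1*, *Gclc*, *Gsr*, *Prdx6*, *Sod3* and *Gsta4* had no window in the table. The 9 of these 10 cores that lie before the start of their window's transcript are shown with 10 bases on each side. They are read on the strand of the core, with capitals for the core, to let the variable letters be compared. For *Txnrd1* that start lies within the gene as counted (core at chr10:82859114-82859122, gene at chr10:82833951-82897724, forward strand), so this core is not upstream of the whole gene.
Gsta3: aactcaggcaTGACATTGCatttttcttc
Nfe2l2: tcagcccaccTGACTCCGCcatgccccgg
Gstm5: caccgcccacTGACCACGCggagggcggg
Gclm: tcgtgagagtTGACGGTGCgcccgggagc
Prdx1: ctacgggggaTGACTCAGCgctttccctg
Mgst1: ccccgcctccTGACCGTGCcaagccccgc
Mt2: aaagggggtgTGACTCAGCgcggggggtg
Txnrd1: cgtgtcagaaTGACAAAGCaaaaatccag
Sod1: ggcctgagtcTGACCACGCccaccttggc
*Prdx1* and *Mt2* share the same 9 letters, as do *Gstm5* and *Sod1*. The remaining member, *Srxn1*, holds its core within the transcribed part. None of the 10 members was called, and their log2 fold changes lay between -0.56 and 0.06, with a median of -0.11, against a median of -0.09 for the 25 members whose window lacks the core.

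Thioredoxin passes electrons to peroxiredoxins and is itself reduced by thioredoxin reductases. *Txn1*, the cytosolic thioredoxin, had 247, 194 and 210.4 CPM in control and 177, 174 and 182 CPM in caBmpr1a libraries. All caBmpr1a values lay below the control values, close to each other, with a log2 fold change of -0.29 (SE 0.13, edgeR adjusted p = 0.511), or -0.17 in the 4 libraries. *Txnrd2*, the mitochondrial reductase, behaved alike at a lower level, with 24.4, 22.5 and 24.5 CPM in control and 20.4, 20.1 and 19.3 CPM in caBmpr1a libraries (log2 fold change -0.26, edgeR adjusted p = 0.525). *Txnrd1*, the cytosolic reductase, overlapped between groups at 127 to 158 and 128 to 135 CPM.

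The 6 glutathione peroxidases included 2 members that were lower at an unadjusted p under 0.05, where 5.05% of all genes were. *Gpx8*, a membrane peroxidase of the endoplasmic reticulum, had 62.0, 57.5 and 56.3 CPM in control and 42.6, 41.4 and 21.1 CPM in caBmpr1a libraries. Its log2 fold change of -0.74 was the lowest of all members (SE 0.24, edgeR adjusted p = 0.387), and it was -0.44 without caBmpr1a replicate 3, the lowest library, and -0.41 in the 4 libraries. *Gpx7*, its relative in the lumen of the endoplasmic reticulum, had 13.8, 10.03 and 10.6 CPM in control and 9.17, 8.50 and 8.04 CPM in caBmpr1a libraries (log2 fold change -0.42, edgeR adjusted p = 0.499). In the 4 libraries this value was -0.19.

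*Gpx4*, which reduces lipid peroxides in membranes, had 364, 259 and 261 CPM in control and 247, 248 and 249 CPM in caBmpr1a libraries, so that its log2 fold change of -0.25 owes most to control replicate 1 and was -0.07 without it. *Gpx1*, the abundant cytosolic peroxidase, had 331, 246 and 258 CPM in control and 255, 229 and 199.8 CPM in caBmpr1a libraries, with overlap between the groups and a log2 fold change of -0.29 that was -0.024 in the 4 libraries. *Gpx3*, the secreted plasma form, had 54.6, 88.3 and 50.4 CPM in control and 69.0, 83.6 and 80.2 CPM in caBmpr1a libraries, also with overlap (log2 fold change 0.27, or 0.18 in the 4 libraries). *Gpx2*, the gastrointestinal form, was low, between 3.04 and 7.13 CPM in control and between 2.68 and 4.23 CPM in caBmpr1a libraries, with a log2 fold change of -0.41 that was -0.085 in the 4 libraries.

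None of the 6 peroxiredoxins, thiol peroxidases of the cytosol, mitochondria and endoplasmic reticulum, had an unadjusted p under 0.05. *Prdx6*, which also has phospholipase activity and takes part in surfactant lipid turnover, had 894, 472 and 377 CPM in control and 379, 417 and 628 CPM in caBmpr1a libraries. The highest values came from the pair of libraries with reads on Y-linked genes, 1 in each group, and the log2 fold change changed from -0.29 (SE 0.33) to 0.16 without control replicate 1 and to -0.058 in the 4 libraries. *Prdx1* had 298, 223 and 231 CPM in control and 219, 221 and 209 CPM in caBmpr1a libraries, so that the groups were only narrowly apart. *Prdx3*, of mitochondria, had 72.8, 61.4 and 62.5 CPM in control and 61.3, 59.5 and 58.0 CPM in caBmpr1a libraries. In the 4 libraries the log2 fold change was -0.01 for *Prdx1* and -0.003 for *Prdx3*. *Prdx4*, of the endoplasmic reticulum, had the only log2 fold change above 0 in the family, at 0.16 (35.2 to 43.3 CPM in control and 40.9 to 46.1 CPM in caBmpr1a libraries). *Prdx2* and *Prdx5* overlapped, with -0.13 and -0.01, and both turned above 0 in the 4 libraries (0.04 and 0.20).

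*Cat*, which encodes catalase, the peroxisomal enzyme that splits hydrogen peroxide, had the smallest p of the members that were not called. It lies at chr2:103453904-103485153 on the reverse strand of mm10. It had 943, 1032 and 992 CPM in control and 763, 633 and 459 CPM in caBmpr1a libraries. Control libraries agreed closely, every caBmpr1a library lay below them, and caBmpr1a replicate 3 was the lowest. Control averaged 989 ± 44.7 and caBmpr1a 618 ± 153 CPM (SD, n = 3). The log2 fold change was -0.68 (SE 0.19), with a p of 0.00705 and an adjusted p of 0.311 in edgeR's model across all genes. With 1 library left out at a time it stayed between -0.83 and -0.47, and in the 4 libraries it was -0.50 (edgeR adjusted p = 0.0896). With the reads on Y-linked genes as a covariate it was -0.70 and passed (edgeR adjusted p = 0.0359), in a fit that called 423 genes. Among 10 AT2 markers, 4 were lower and 1, *Nkx2-1*, was higher at an unadjusted p under 0.05 (5.05% and 4.62% of all genes), with *Sftpb* at a log2 fold change of 0.01 and a median of -0.30 over the list, and the part of a lower AT2 share in the value of *Cat* was not tested.

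The superoxide dismutases differed among themselves. *Sod3*, the extracellular form, had 28.2, 37.0 and 31.1 CPM in control and 42.8, 51.7 and 37.4 CPM in caBmpr1a libraries. The closest libraries of both groups had 37.0 and 37.4 CPM, and the log2 fold change was 0.45 (SE 0.16, edgeR adjusted p = 0.420) and 0.51 in the 4 libraries. The summed mesenchymal markers were also higher in every caBmpr1a than in every control library, while the summed endothelial markers overlapped between the groups (ranges above), and their part in the value of *Sod3* was not tested. *Sod1*, the cytosolic copper and zinc form, had 364, 268 and 249 CPM in control and 261, 279 and 280.3 CPM in caBmpr1a libraries, and *Sod2*, the mitochondrial manganese form, had 77.6, 91.5 and 93.8 CPM and 86.4, 85.0 and 75.6 CPM. Both overlapped, with log2 fold changes of -0.10 and -0.09.

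Of the 10 glutathione transferases, which couple glutathione to electrophiles, 1 was lower at an unadjusted p under 0.05 (10%, against 5.05% of all genes). *Mgst1*, the microsomal transferase, had 338, 259 and 267 CPM in control and 228, 213 and 206 CPM in caBmpr1a libraries. The groups did not overlap, and the log2 fold change was -0.42 (SE 0.14, edgeR adjusted p = 0.401) and -0.22 in the 4 libraries. *Gstm2* (18.6, 22.2 and 16.5 against 22.7, 26.5 and 22.8 CPM) and *Gstt1* (166, 152 and 171 against 179, 194 and 199.8 CPM) were above every control library in all caBmpr1a libraries, with log2 fold changes of 0.33 and 0.23 (edgeR adjusted p = 0.528 and 0.564). *Gstm1*, a close relative of *Gstm2*, had 106, 79.9 and 71.3 CPM in control and 71.3, 70.1 and 49.8 CPM in caBmpr1a libraries. Its log2 fold change of -0.43 became -0.06 in the 4 libraries. Reads that align to several places were not counted, so reads shared by *Gstm1*, *Gstm2* and *Gstm5*, or by *Gstp1* and its near copy *Gstp2*, can be missing. *Gsta3*, *Gsta4*, *Gstm5*, *Gstp1*, *Gsto1* and *Mgst3* overlapped between the groups, with log2 fold changes between -0.09 and -0.02 that turned above 0 under at least 1 other scaling or library set.

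The metallothioneins, small cysteine-rich proteins that hold zinc and copper and scavenge radicals, are *Mt1* and *Mt2*, which lie 5522 bases apart on chromosome 8. *Mt1* had 54.5, 44.6 and 59.7 CPM in control and 41.4, 28.1 and 38.3 CPM in caBmpr1a libraries. Its groups did not overlap, and the log2 fold change was -0.56 (SE 0.17, edgeR adjusted p = 0.367), the same to 2 decimals in the 4 libraries. *Mt2* had 13.9, 9.77 and 18.5 CPM in control and 10.9, 4.50 and 13.2 CPM in caBmpr1a libraries. Its groups overlapped, with a log2 fold change of -0.56 (SE 0.38, edgeR adjusted p = 0.668) that was -0.86 in the 4 libraries and lay between -0.84 and -0.21 with 1 library left out. In each group replicate 2 was the lowest library for both genes. The 250 bases before each start are shown because both genes are known to be switched on by zinc through metal response elements. Capitals mark TGCACNC or TGCGCNC, searched on both strands, a core found in 25.7% of all windows (RefSeq, GRCm38.p6; *Mt1* chr8:94178839-94179088 and *Mt2* chr8:94172368-94172617, both forward strand).
Mt1: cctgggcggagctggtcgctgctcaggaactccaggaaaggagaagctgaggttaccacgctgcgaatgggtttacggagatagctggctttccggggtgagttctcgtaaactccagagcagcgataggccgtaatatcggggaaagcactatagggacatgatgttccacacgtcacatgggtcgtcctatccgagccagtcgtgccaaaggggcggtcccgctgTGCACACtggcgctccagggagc
Mt2: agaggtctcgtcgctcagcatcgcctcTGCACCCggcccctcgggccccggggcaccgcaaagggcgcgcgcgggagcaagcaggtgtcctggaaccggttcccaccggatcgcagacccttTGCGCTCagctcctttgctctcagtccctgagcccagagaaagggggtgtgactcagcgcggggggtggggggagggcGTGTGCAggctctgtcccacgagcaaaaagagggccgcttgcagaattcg
The core occurred once before the start of *Mt1* and 3 times before that of *Mt2*. Beyond the printed bases, cores also began at bases 3 and 21 after the start of *Mt1* and at base 5 after that of *Mt2*. In the full windows of 300 bases the core was found for 10 of the 35 members (28.6%), beside 28.2% of all genes.

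Per exon length (RPKM, CPM per kilobase of exon), the members covered a wide range of levels in control cells. *Sod1* was the highest at 453 ± 95.2 RPKM (SD, n = 3), followed by *Cat* at 388 ± 17.5, *Gclc* at 337 ± 76.3, *Mgst1* at 306 ± 46.2, *Gpx1* at 266 ± 44.2 and *Prdx6* at 233 ± 111 RPKM. Each of these 6 lay within the summed SDs of the next in this order. The lowest were *Nqo1* at 1.26 ± 0.455, *Gstm5* at 0.798 ± 0.168 and *Slc7a11* at 0.233 ± 0.0520 RPKM. In caBmpr1a cells *Cat* stood at 242 ± 59.9 RPKM, and *Gss* moved from 11.6 ± 0.314 to 34.04 ± 8.14 RPKM. *Gclc* exceeded *Gclm* 32.0-, 33.9- and 43.0-fold in control and 27.7-, 28.8- and 28.1-fold in caBmpr1a libraries. Removal of duplicate reads before counting can lower high values more than low ones, so the upper end of this order may be compressed.

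**Figure D4:**
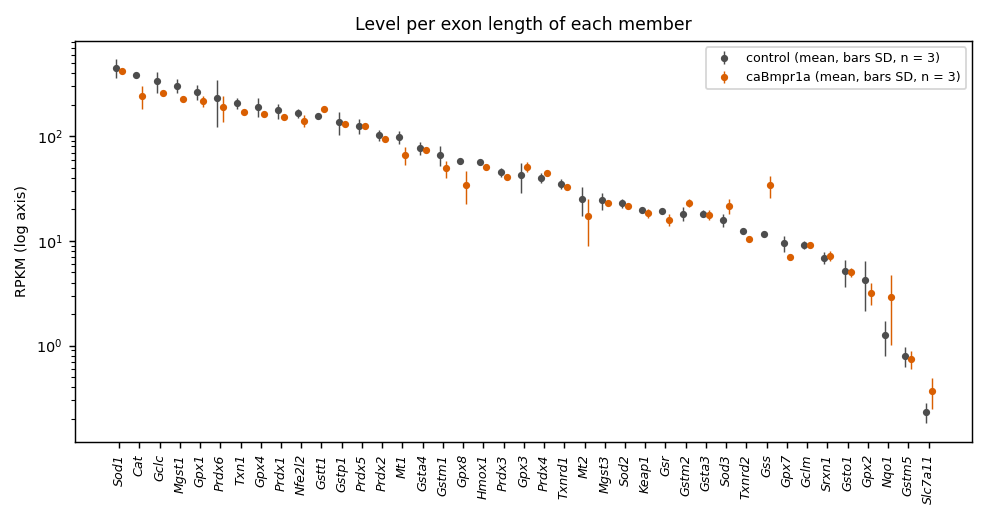
Points are the mean RPKM of each member in control (grey) and caBmpr1a (orange) cells on a log axis, with bars for the SD over 3 libraries, ordered by the control mean. Levels run from 453 RPKM for *Sod1* to 0.233 RPKM for *Slc7a11*, and *Gss* stands out with its orange point above the grey one.

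Other genes of the same pathways were compared by lists of regulators of NRF2, further NRF2 targets, other glutathione enzymes, other thioredoxin and redox proteins, metal handling genes and NADPH oxidases, all chosen with earlier results of these data known. Of 98 such genes found among the counted genes, 90 were tested, and edgeR called 0 of them. At an unadjusted p under 0.05 there was 1 higher and there were 6 lower (1.11% and 6.67%, against 4.62% and 5.05% of all genes). The groups did not overlap for 3 higher and 10 lower (3.33% and 11.1%, against 7% and 10.1% of all genes), and the median log2 fold change was -0.07. DESeq2 called *Ugdh*. *Ugdh*, which makes UDP-glucuronic acid, had 28.1, 24.2 and 26.8 CPM in control and 39.7, 41.6 and 40.6 CPM in caBmpr1a libraries. It was higher in all caBmpr1a libraries with a log2 fold change of 0.62 (SE 0.11, edgeR adjusted p = 0.103), and passed in the 4 libraries at 0.70 (edgeR adjusted p = 0.0404).

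Among the list genes with groups that did not overlap, the 5 besides *Ugdh* with the largest log2 fold changes in size were *Trf*, transferrin (-0.64), *Nxn*, nucleoredoxin (0.57), *Sepp1*, selenoprotein P (-0.54), *Txnrd3* (-0.46) and *Sesn1*, sestrin (-0.45). *Trf* had 701, 646 and 733 CPM in control and 543, 441 and 354 CPM in caBmpr1a libraries. *Sepp1*, which carries selenium for selenoproteins such as the glutathione peroxidases, had 1319, 1209 and 1192 CPM in control and 948, 874 and 727 CPM in caBmpr1a libraries. None of these 5 passed (adjusted p between 0.287 and 0.599 from edgeR's test).

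**Figure D5:**
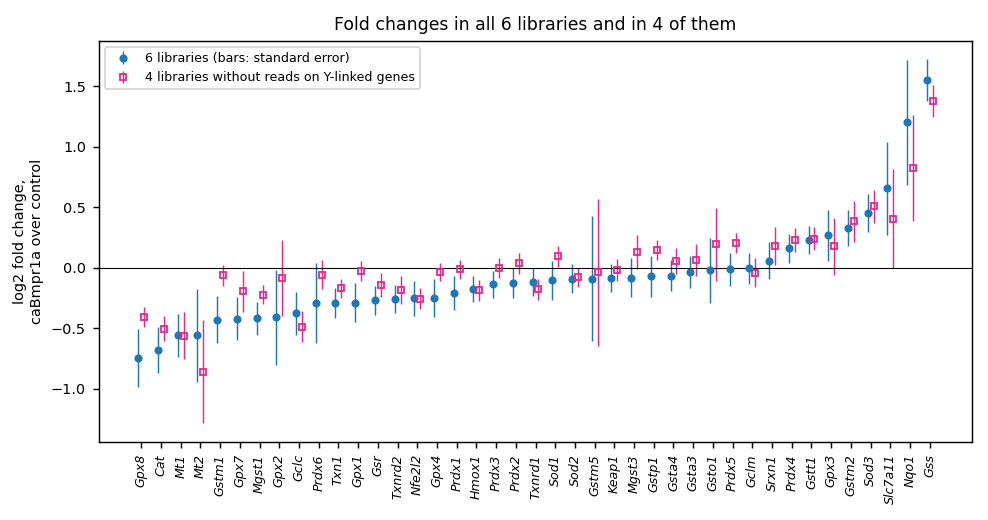
Log2 fold changes (caBmpr1a over control) of the 41 members with bars for their standard error, in all 6 libraries (filled blue) and in the 4 libraries that lack Y-linked reads (open pink), ordered by the former. *Gss* stays far above the line at 1.55 and 1.38, while most members below 0 move toward it in the 4 libraries, among them *Gpx8* from -0.74 to -0.41 and *Gstm1* from -0.43 to -0.06.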

How the data were processed

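Poly(A) RNA from sorted, lineage-labeled AT2s was sequenced as paired reads, in 3 libraries per group. The authors deposited raw read counts for 24421 genes in 6 libraries, with exon lengths, not normalized. Before counting with featureCounts 1.5.3, reads had been trimmed, mapped with HISAT2 to the mm10 genome and cleared of duplicates. The file header shows no options for strand, read pairs, overlapping genes or reads with several alignments, so reads on overlapping genes and close copies can be lost. Of the counts from 1 to 20, between 56.9% and 60.8% were even in each library, so a read pair may have been counted as 2 and low counts may look more precise than they are.

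Counts were fitted with edgeR 4.0.16 in R 4.3.3 (TMM scaling, filterByExpr with its minimum count of 10, the quasi-likelihood test and Benjamini-Hochberg adjustment over all genes tested), and called at an adjusted p under 0.05. The standard error is the size of the log2 fold change over the square root of F. DESeq2 1.42.0, the package of the study, and limma-voom (limma 3.58.1) were alternatives, with other scalings, no filter, the replicate number as a block, age or Y-linked reads as covariates, 4 libraries, and each library left out. The code was tested on simulated data.

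Groups came from the sample labels. All members are named, together with genes of other pathway lists that were called or among the 6 of largest change without overlap. Members and lists were chosen with earlier results of these data known. Promoter windows came from RefSeq on GRCm38.p6.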

Additional observations from a re-analysis of the deposited data

How the results depend on the processing

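The log2 fold changes of the 41 members kept direction and side of the threshold in 341 of 369 values over 9 alternatives, and in 218 of 246 values with 1 library left out; 25 members never changed sign. Counts of calls depend more on the setting. *Gss* was the 1 member called higher under every alternative that keeps all libraries or the 4 libraries, and with 1 library left out 0 to 1 members were higher. With Y-linked reads as a covariate 1 member (*Cat*) was called lower. Over all genes the higher calls, 40 as reported, were 62 with no filter on low counts, 198 with DESeq2, 213 with the Y-linked covariate, 73 in the 4 libraries and between 6 and 59 with 1 library left out, and the lower calls, 2 as reported, were 1 with library size only, 5 with no filter, 88 with DESeq2, 1 with limma-voom, 1 with age, 210 with the Y-linked covariate, 40 in the 4 libraries and 0 to 4 with 1 library left out. The cause of these differences was not tested.

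The median of the members turned to 0.016 with library size only, which moved the median of all genes to 0.12, and it lay between -0.19 and -0.061 with 1 library left out. Most members whose sign turned had a log2 fold change near 0, with *Gpx2* (-0.41) and *Prdx6* (-0.29) as exceptions that turned without control replicate 1. With library size only they were *Keap1* (0.044), *Gclm* (0.13), *Txnrd1* (0.016), *Prdx5* (0.11), *Sod1* (0.023), *Sod2* (0.039), *Gsta3* (0.091), *Gsta4* (0.063), *Gstm5* (0.040), *Gstp1* (0.055), *Gsto1* (0.10) and *Mgst3* (0.045). In the 4 libraries they were *Prdx2* (0.036), *Prdx5* (0.20), *Sod1* (0.095), *Gsta3* (0.063), *Gsta4* (0.055), *Gstp1* (0.15), *Gsto1* (0.19) and *Mgst3* (0.13). With RLE size factors they were *Gclm* (0.020), *Prdx5* (0.017) and *Gsto1* (0.0075), with DESeq2 *Gclm* (0.0060) and *Prdx5* (0.0050), and with limma-voom *Gsto1* (0.030). With 1 library left out, values ranged from -0.14 to 0.026 for *Keap1*, -0.080 to 0.042 for *Gclm*, -0.041 to 0.19 for *Srxn1*, -0.63 to 0.068 for *Gpx2*, -0.092 to 0.11 for *Prdx5*, -0.53 to 0.16 for *Prdx6*, -0.21 to 0.073 for *Sod1*, -0.18 to 0.0044 for *Sod2*, -0.11 to 0.045 for *Gsta3*, -0.17 to 0.033 for *Gsta4*, -0.22 to 0.079 for *Gstm5*, -0.20 to 0.15 for *Gstp1*, -0.25 to 0.10 for *Gsto1* and -0.18 to 0.075 for *Mgst3*.

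Same-numbered libraries of both groups come from mice of different genotype, and their numbers do not pair the libraries (correlations of deviations -0.24, 0.20 and -0.53). When that number was added as a block, *Gss* was at 1.52 (adjusted p = 0.0251 from edgeR's test), 36 genes were higher and 5 lower, and *Gsto1* turned to 0.018.

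Members below about 5 CPM (*Nqo1*, *Slc7a11*, *Gstm5*, *Gpx2*) rest on few counts, from 14 to 238 per library, so their differences are the least precise.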
